A study of Mus musculus with 12 samples.

Results

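Type I interferon-stimulated genes are the genes a cell switches on when interferon-alpha or interferon-beta reaches it. A fixed list of 34 of them was followed through whole mouse lung, from RNA sensors and transcription factors to antiviral effectors and the ubiquitin-like ISG15 system. Members were chosen by name, with earlier results of these data known. Of the 34, 32 had a probe set annotated to their symbol alone, out of 18193 genes with such a probe set on the array, and 31 of these passed the filter on low signal. Mx2 did not pass it, and the expression of Isg15 and Ifi44 was not analysed here, while their promoter windows were counted. The tested table held 24574 probe sets.

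The series asked how lung gene expression in sepsis differs in mice lacking PPTA, the gene for the neuropeptide substance P, which is named Tac1 on the array. Sepsis was induced by caecal ligation and puncture (CLP), in which gut bacteria leak into the abdomen from the ligated and pierced caecum, and sham surgery was the control. The 4 groups of 3 arrays were knockout-labelled CLP, knockout-labelled sham, wild-type CLP and wild-type sham. All lungs were taken 8 h after surgery from mice 8 to 10 weeks old. The labels give the strain Balb/c for the wild type and leave the knockout's strain out, and genotype and strain cannot be told apart here. They speak of triplicates without saying that each array came from its own mouse, so the p-values measure the spread between these arrays, which may be technical.

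Type I interferons bind a receptor made of Ifnar1 and Ifnar2, whose kinases Jak1 and Tyk2 act on Stat2. Stat2 and Irf9 are part of the complex ISGF3, which binds interferon-stimulated response elements (ISREs) in promoters and so raises a shared programme of antiviral genes. Interferon itself is made after receptors such as Tlr4, which senses bacterial lipopolysaccharide, or cytoplasmic nucleic acid sensors have fired. In lung the programme is best known as a defence against respiratory viruses, and bacterial products also switch it on.

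Promoter sequence is shown for 6 genes that had among the smallest p-values of the list, because ISRE-bearing and ISRE-free promoters both occur among them. The RefSeq promoter table (build GRCm38.p6) held 26 windows for 24 of the 34 genes, each from 250 bases before to 50 bases after a start site. No window was taken for Dhx58, Zbp1, Oas2, Mx1, Mx2, Rtp4, Usp18, Parp9, Parp14 and Tor3a. Capitals mark matches on either strand to the ISRE core, which reads GAAA, any 2 bases and GAAA, and each sequence runs 5′ to 3′ along the gene's own strand. The windows are chr14:55603735-55604034 on the plus strand for Irf9, chr5:114896684-114896983 (plus) for Oasl2, chr10:128270248-128270547 (plus) for Stat2, chr17:78882523-78882822 (minus) for Eif2ak2, chr19:34640639-34640938 (plus) for Ifit1 and chr6:3399522-3399821 (minus) for Samd9l.
Irf9: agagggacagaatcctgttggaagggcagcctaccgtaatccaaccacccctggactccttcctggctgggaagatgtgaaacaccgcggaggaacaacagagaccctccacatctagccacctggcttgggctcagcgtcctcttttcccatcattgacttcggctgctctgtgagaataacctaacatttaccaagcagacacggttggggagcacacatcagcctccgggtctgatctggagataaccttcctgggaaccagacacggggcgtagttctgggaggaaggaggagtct
Oasl2: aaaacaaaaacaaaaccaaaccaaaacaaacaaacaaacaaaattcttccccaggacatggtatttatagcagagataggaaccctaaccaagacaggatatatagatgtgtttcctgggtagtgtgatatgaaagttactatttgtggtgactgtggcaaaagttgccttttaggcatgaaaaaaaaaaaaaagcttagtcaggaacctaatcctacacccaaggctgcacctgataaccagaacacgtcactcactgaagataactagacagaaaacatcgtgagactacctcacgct
Stat2: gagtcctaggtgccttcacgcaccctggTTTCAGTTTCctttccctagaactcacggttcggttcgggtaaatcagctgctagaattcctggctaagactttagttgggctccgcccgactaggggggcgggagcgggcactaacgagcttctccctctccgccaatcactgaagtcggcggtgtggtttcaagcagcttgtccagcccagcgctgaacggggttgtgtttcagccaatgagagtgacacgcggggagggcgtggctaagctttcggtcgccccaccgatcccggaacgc
Eif2ak2: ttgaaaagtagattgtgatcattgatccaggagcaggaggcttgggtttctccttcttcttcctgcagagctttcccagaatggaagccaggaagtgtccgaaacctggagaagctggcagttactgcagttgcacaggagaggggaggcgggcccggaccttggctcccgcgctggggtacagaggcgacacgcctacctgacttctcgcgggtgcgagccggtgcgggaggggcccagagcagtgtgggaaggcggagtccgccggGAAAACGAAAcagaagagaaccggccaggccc
Ifit1: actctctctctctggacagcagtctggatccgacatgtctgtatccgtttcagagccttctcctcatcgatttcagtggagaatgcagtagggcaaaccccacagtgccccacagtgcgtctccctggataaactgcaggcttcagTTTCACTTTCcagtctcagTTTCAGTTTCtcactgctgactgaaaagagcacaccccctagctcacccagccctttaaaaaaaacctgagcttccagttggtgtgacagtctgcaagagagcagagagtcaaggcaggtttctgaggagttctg
Samd9l: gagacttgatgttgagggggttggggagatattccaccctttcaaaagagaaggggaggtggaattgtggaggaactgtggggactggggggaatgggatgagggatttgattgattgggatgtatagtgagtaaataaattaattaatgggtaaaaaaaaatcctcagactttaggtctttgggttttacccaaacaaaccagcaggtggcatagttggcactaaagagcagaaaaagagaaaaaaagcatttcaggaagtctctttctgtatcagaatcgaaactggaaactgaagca

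Ifit1 held 2 ISRE cores, the first starting 104 bases before the start site and the second 85 bases before it. Stat2 held 1, starting 222 bases before the start site, and Eif2ak2 held 1 whose first base lies 18 bases after it. Irf9, Oasl2 and Samd9l had none in these windows. Over the list, 12 of 24 genes (50%) held at least 1 ISRE core, against 3.99% of the 27025 genes with a window in the table. The interferon-gamma-activated element, which reads TTC, any 3 bases and GAA, was present in 6 of 24 genes (25%), against 9.55% of all genes. It was searched separately on both strands, so that its matches can share bases with ISRE matches. These matches describe letters in a window and not bound sites.

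The deposited values are linear signal intensities, each array scaled to the same trimmed mean. Within groups, arrays correlated at 0.952 to 0.973 in knockout-labelled CLP, 0.937 to 0.981 in knockout-labelled sham, 0.985 in wild-type CLP and 0.983 to 0.985 in wild-type sham (Pearson's r of log2 signals across probe sets). Array 3 of knockout-labelled sham stood apart, with a summed alveolar macrophage marker signal of 9548 against 3182 and 3452 on the other arrays of its group. Lung markers were present on every array, 5 alveolar type 2 markers summing to between 29923 and 35205. Tac1, the targeted gene, went against the labels. Tac1 read 442, 337 and 462 in knockout-labelled CLP and 379, 441 and 530.3 in knockout-labelled sham. Wild-type Tac1 signals were 16.1, 3.95 and 12.4 after CLP and 5.25, 8.34 and 2.80 after sham. On the log2 scale it was higher by 4.97 ± 0.33 (SE, adjusted p = 1.1e-06) after CLP and by 5.70 ± 0.33 (SE, adjusted p = 4.3e-07) after sham in the knockout-labelled lungs. Which stretch of Tac1 was altered is not stated in the labels. Tac1 was above the array median on the knockout-labelled arrays alone, and with no filter on low signal the adjusted p was 1.4e-06 after CLP and 4.6e-07 after sham. Genotype directions below are those of the labels. Had the genotype labels been exchanged, every genotype difference below would change its sign and each CLP response its genotype, and the arrays do not tell an exchange from an altered transcript that the probe set still reads.

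The interferon programme was highest on arrays 2 and 3 of knockout-labelled CLP, while array 1 lay near the knockout-labelled sham arrays. For 30 of 32 members the knockout-labelled CLP mean was the highest of the 4 group means, the exceptions being Ifit2, highest in knockout-labelled sham, and Tor3a, highest in wild-type sham. Relative to the wild-type sham mean, the median member stood 0.45, 1.26 and 2.12 higher on the log2 scale on knockout-labelled CLP arrays 1, 2 and 3. The corresponding shifts were 0.60, 0.16 and 0.64 on the knockout-labelled sham arrays and 0.15, 0.02 and -0.11 on the wild-type CLP arrays. Members at least 2-fold above the wild-type sham mean numbered 6, 18 and 27 of 32 on the knockout-labelled CLP arrays, against 4.48%, 6.17% and 7.7% of all tested probe sets. On the knockout-labelled sham arrays they numbered 3, 1 and 7, against 3.27%, 3.37% and 5.69%. None reached this on a wild-type CLP array, against 1.75%, 1.24% and 1.49% of all tested probe sets. In whole lung, more cells that express these genes and more RNA per cell cannot be told apart.

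**Figure D1:**
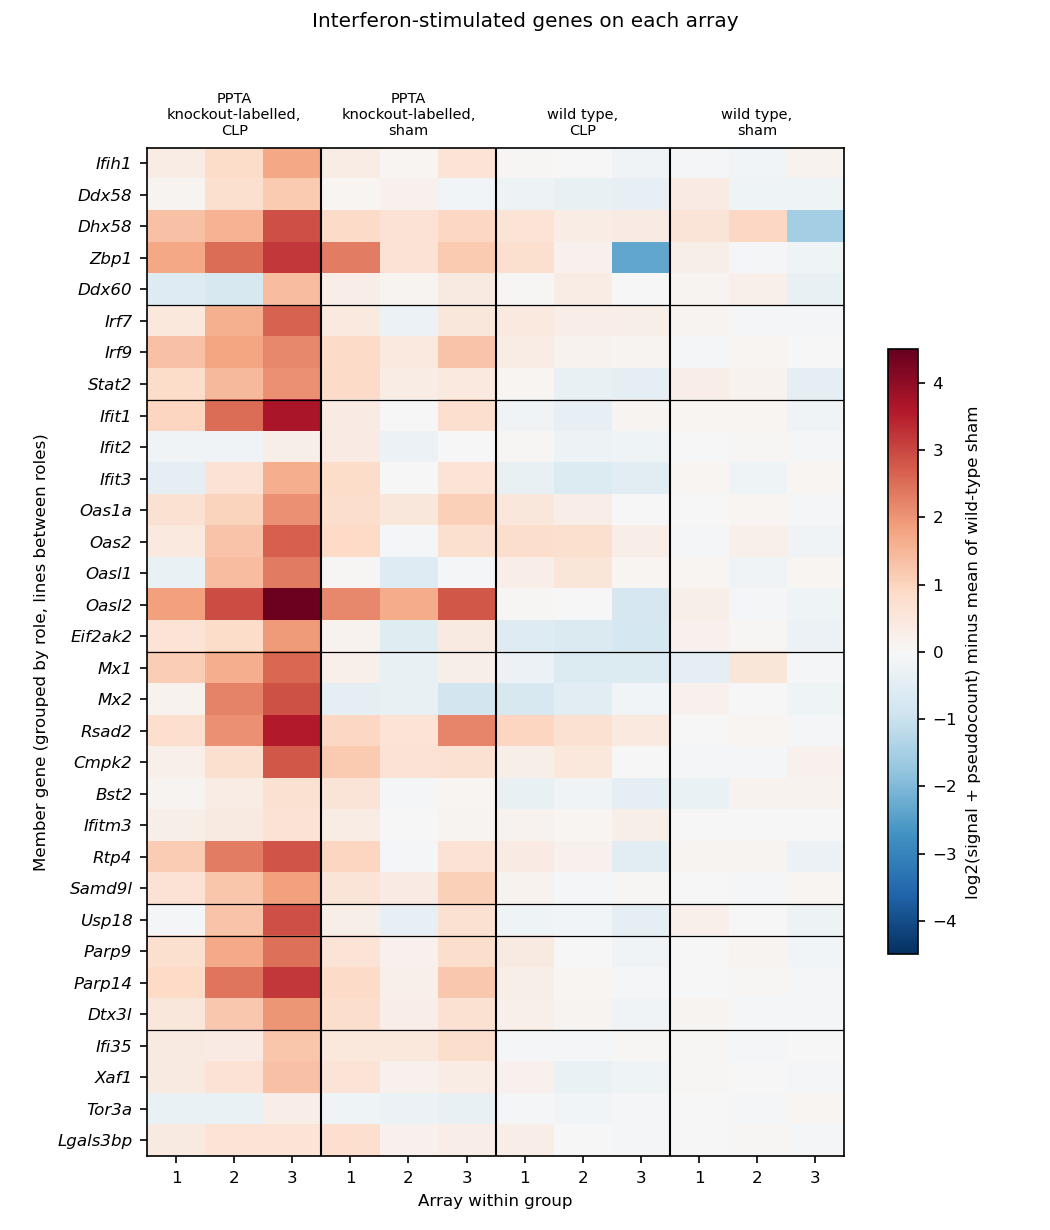
Heat map of the 32 members with a probe set (rows, ordered by role) on the 12 arrays (columns, by group); colour is log2 signal minus that gene's wild-type sham mean. Array 3 of knockout-labelled CLP is the darkest column, with 27 of 32 members at least 2-fold above the wild-type sham mean (7.7% of all tested probe sets), and array 1 of the same group has 6 (4.48%).

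After CLP, knockout-labelled lungs carried more interferon-stimulated transcript than wild-type lungs. Of the 31 tested members 22 were higher in knockout-labelled CLP than in wild-type CLP, none was lower and 9 did not pass the test, while 12.6% of all tested probe sets were called higher and 16.9% lower. The largest of the 22 differences were those of Oasl2 (9.83-fold), Zbp1 (7.69-fold), Ifit1 (5.73-fold), Mx1 (4.89-fold) and Rtp4 (4.20-fold), and 15 of the 22 reached 2-fold. The median member differed by 1.17 on the log2 scale, against -0.05 for all tested probe sets. For 23 members every knockout-labelled CLP array lay above every wild-type CLP array, as for 20.6% of all tested probe sets. Mx1 passed the filter only through its 3 knockout-labelled CLP arrays, so that its tests after CLP were not independent of the filter. Leaving Mx1 out gave 21 of 30 with a median of 1.14, and with no filter 22 of 32 members were called. With 1 array left out, 15 to 28 members were called. Without array 3 of knockout-labelled CLP the median member difference was 0.71 and 16 members were called higher, while Ddx60, chosen here after its values were seen, was called lower.

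Within the knockout-labelled mice, 9 of 31 members rose after CLP relative to sham (Irf7, Irf9, Stat2, Ifit1, Eif2ak2, Mx1, Rtp4, Parp9 and Parp14) and none fell. Of all tested probe sets 10.4% were called higher and 18.8% lower. The median member differed by 0.85, against -0.12 for all tested probe sets, and 29 of 31 differences were positive. Arrays did not overlap between the groups for 6 members (Dhx58, Irf9, Ifit1, Eif2ak2, Mx1 and Rtp4), compared with 13% of all tested probe sets. This count depended on single arrays: 20 members were called without array 1 of knockout-labelled CLP, 5 without array 2, and 4 higher with 1 lower (Ddx60, named after its values were seen) without array 3. Leaving out array 2 of knockout-labelled sham gave 4. Irf9, Ifit1, Mx1 and Rtp4 were called in all 12 runs that left out 1 array. These runs kept the filter set on all 12 arrays, which Mx1 passed only through knockout-labelled CLP. They are therefore no independent check of the Mx1 call. Leaving out Mx1 gave 8 of 30, and with no filter 9 of 32 members were called. With only these 2 groups in the model, Mx1 alone was called. Since Mx1 had passed the filter only through 1 of the 2 groups compared, that call was not independent of the filter, and no other member was called. Centring each array on its median moved the median of all tested probe sets to 0.10 and that of the members to 1.08, and called 16 members. The same centring turned the split of all calls, 2553 higher and 4619 lower as deposited, into 5313 higher and 2236 lower.

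**Figure D2:**
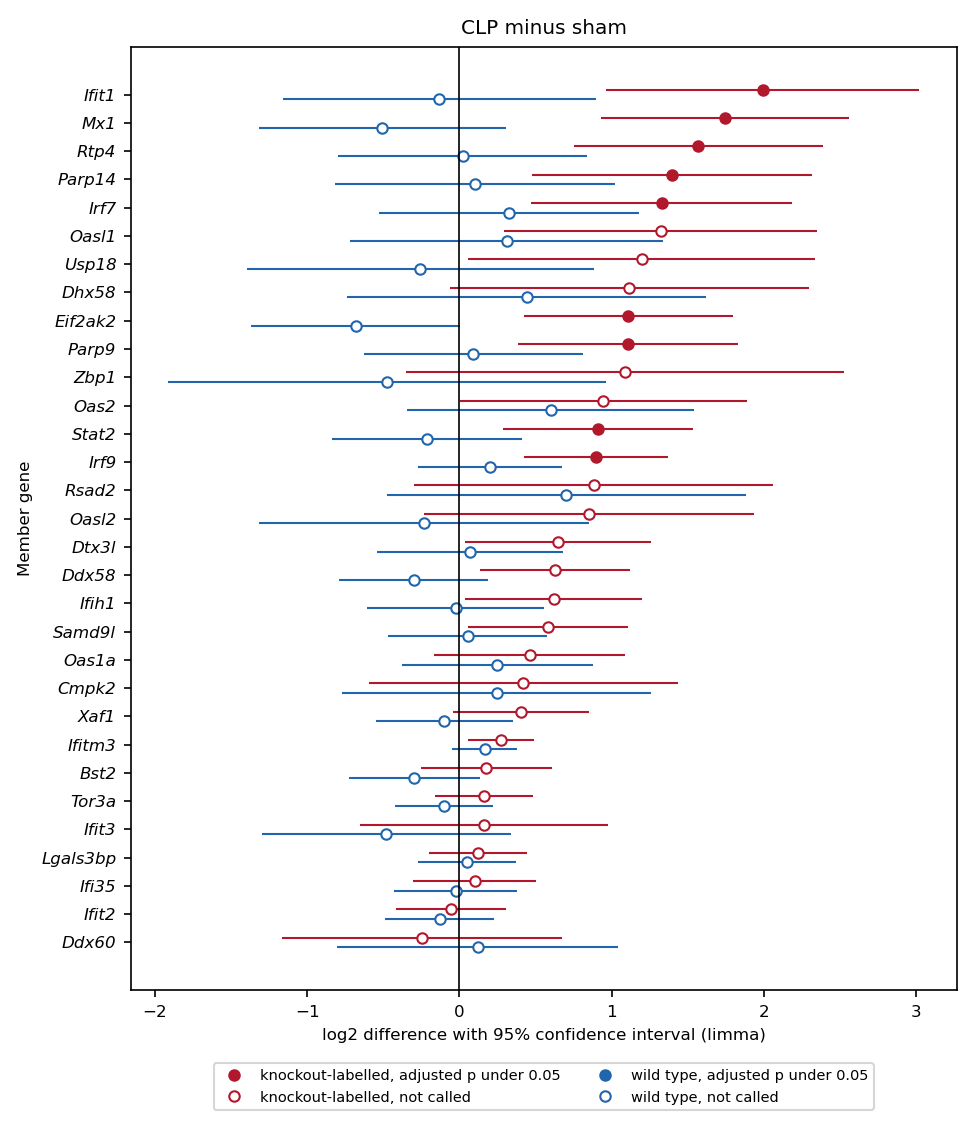
Log2 difference, CLP minus sham, for each of the 31 tested members in knockout-labelled and wild-type lungs, with 95% confidence intervals from the limma model; filled points passed an adjusted p of 0.05. Of the knockout-labelled points 9 are filled, all to the right of 0, and no wild-type point is filled.

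In wild-type lungs no member passed the test for CLP against sham. Not 1 of the 31 had an unadjusted limma p under 0.05, and 0.814% of all tested probe sets were called higher and 0.134% lower. Signs were mixed, with 16 positive and a median difference of 0.02, against -0.05 for all tested probe sets. Array by array, Irf7, Irf9, Oas2, Rsad2 and Ifitm3 read higher on every wild-type CLP array than on every sham array. Ddx58, Ifit3, Eif2ak2 and Tor3a read lower. These 5 and 4 of 31 compare with 9.35% and 15% of all tested probe sets, so that no response of these members is read from them. With only the 2 wild-type groups in the model, 3 members were called, Rsad2 higher and Ifit3 and Eif2ak2 lower. A missed threshold does not show that a gene did not change. For Irf9, for example, the 95% interval of the difference was -0.27 to 0.67 on the log2 scale.

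After sham surgery, Irf9 and Oasl2 were higher in knockout-labelled than in wild-type lungs, 2 of 31 members, against 4.48% of all tested probe sets higher and 3.86% lower. Each has a single probe set, with a suffix that marks probes matching more than 1 transcript. Neither could be tested without such probe sets. A further 27 of the 31 differences were positive without passing, and the median was 0.47, against 0.01 for all tested probe sets. For 14 members the 2 sets of 3 arrays did not overlap in the higher direction, against 15.3% of all tested probe sets, and for Tor3a in the lower, against 14.3%. Without array 3 of knockout-labelled CLP 6 members were called, and without array 2 or 3 of wild-type sham none was. Leaving out array 1 or 3 of knockout-labelled sham, or array 1 of wild-type sham, left 1. The interaction, which tests whether the CLP response differed between genotypes, was called for Eif2ak2 and Mx1, both larger in knockout-labelled lungs, 2 of 31 members, against 1.7% of all tested probe sets larger and 2.36% smaller. The median interaction was 0.64, against -0.07 for all. Mx1 had passed the filter only where it was high, which leaves 1 of 30, and with no filter neither interaction was called. Without array 1 of knockout-labelled CLP the interaction count was 11, and it stayed at 2 without array 3 of knockout-labelled sham. It was 0 in each of the other 10 runs that left out 1 array. These 5 contrasts share arrays with each other, so that their counts are not independent.

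**Figure D3:**
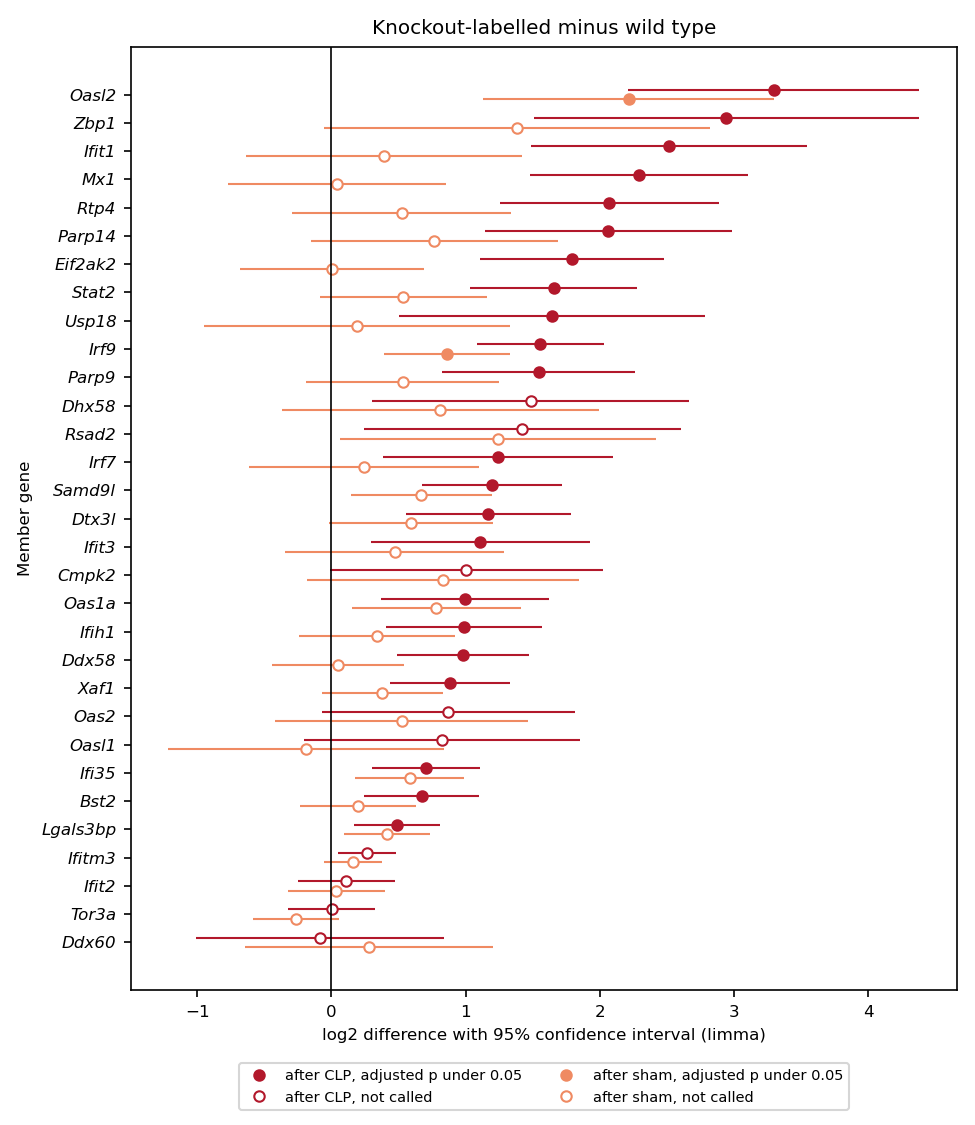
Log2 difference, knockout-labelled minus wild type, for each of the 31 tested members after CLP and after sham, with 95% confidence intervals from the limma model; filled points passed an adjusted p of 0.05. After CLP 22 points are filled and after sham those of Irf9 and Oasl2.

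Of the 5 cytoplasmic sensors, 3 were higher in knockout-labelled CLP than in wild-type CLP and none passed in any other contrast. Over all tested probe sets, 12.6% were called higher in knockout-labelled than wild-type CLP. For CLP against sham in knockout-labelled mice the share was 10.4%. Counts of the roles that follow have the same shares beside them. Ifih1 encodes MDA5, which binds long double-stranded RNA. Ifih1 (probe set 1426276_at) read 322, 453 and 857 in knockout-labelled CLP and 321, 271 and 392 in knockout-labelled sham. Wild-type Ifih1 signals were 263, 261 and 231 after CLP and 249, 232 and 288 after sham. All knockout-labelled CLP values lay above all wild-type CLP values, and they overlapped those of knockout-labelled sham. The difference from wild-type CLP was 0.99 ± 0.27 (SE, adjusted p = 0.016), a call lost without array 3 of wild-type CLP (adjusted p up to 0.056). Ddx58 encodes RIG-I, the sensor of RNA with a free triphosphate end. Ddx58 (probe set 1436562_at) read 254, 386 and 530.3 in knockout-labelled CLP and 249, 264 and 210.4 in knockout-labelled sham. Wild-type Ddx58 signals were 198, 184 and 181 after CLP and 298, 204 and 204 after sham. Arrays 2 and 3 of knockout-labelled CLP stood above every array outside their group, and all 3 lay above the wild-type CLP arrays. Ddx58 was higher than in wild-type CLP by 0.98 ± 0.23 (SE, adjusted p = 0.0069), and against knockout-labelled sham it differed by 0.63 ± 0.23 (SE, adjusted p = 0.054), short of the threshold. Zbp1 detects nucleic acid in the Z form and can start necroptosis. Zbp1 (probe set 1429947_a_at) read 118, 204 and 326 in knockout-labelled CLP and 177, 54.0 and 79.6 in knockout-labelled sham. Wild-type Zbp1 signals were 57.0, 38.6 and 3.67 after CLP and 40.3, 31.0 and 28.8 after sham. Array 1 of knockout-labelled sham lay inside the knockout-labelled CLP range, and the wild-type CLP arrays lay far below it. Zbp1 exceeded wild-type CLP by 2.94 ± 0.66 (SE, adjusted p = 0.0061) and 1 wild-type CLP array read 3.67. Its other probe set gave 0.81 (adjusted p = 0.14), so that the call rests on a probe set whose suffix marks probes matching more than 1 transcript.

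Dhx58 encodes LGP2, which tunes signalling by the other sensors of its family. Dhx58 (probe set 1451426_at) read 52.1, 61.6 and 159 in knockout-labelled CLP and 37.0, 30.8 and 38.1 in knockout-labelled sham. Wild-type Dhx58 signals were 30.1, 24.6 and 25.0 after CLP and 29.7, 39.0 and 4.12 after sham. The knockout-labelled CLP arrays lay above all others, with array 3 far above arrays 1 and 2. Its differences of 1.49 ± 0.55 (SE, adjusted p = 0.057) from wild-type CLP and 1.12 ± 0.55 (SE, adjusted p = 0.14) from knockout-labelled sham did not pass. Ddx60 ranged over 28.4 to 134 in knockout-labelled CLP, 54.0 to 66.0 in knockout-labelled sham, 48.3 to 62.7 in wild-type CLP and 37.8 to 58.3 in wild-type sham. Only array 3 of knockout-labelled CLP was high for this helicase, and arrays 1 and 2 lay below every array of the other 3 groups.

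All 3 transcription factors rose after CLP in the knockout-labelled mice and were higher there than in wild-type CLP. Irf9 is the DNA-binding subunit of ISGF3. Irf9 (probe set 1421322_a_at) read 396, 533 and 713 in knockout-labelled CLP and 284, 212 and 379.8 in knockout-labelled sham. Wild-type Irf9 signals were 197, 171 and 169 after CLP and 147, 164 and 154 after sham. The 4 groups were ordered without overlap between the knockout-labelled CLP arrays and any other, and between knockout-labelled sham and either wild-type group. Irf9 was higher than in wild-type CLP by 1.56 ± 0.22 (SE, adjusted p = 0.00033), or 2.94-fold, and rose over knockout-labelled sham by 0.90 ± 0.22 (SE, adjusted p = 0.0091). Both calls held with any 1 array left out. The sham difference of 0.86 ± 0.22 (SE, adjusted p = 0.028) was lost without array 1 or 3 of knockout-labelled sham or any array of wild-type sham (adjusted p up to 0.097). Stat2 is the partner of Irf9 in that complex. Stat2 (probe set 1450403_at) read 133, 204 and 310.4 in knockout-labelled CLP and 134, 91.7 and 99.1 in knockout-labelled sham. Wild-type Stat2 signals were 77.8, 57.5 and 54.0 after CLP and 90.1, 81.1 and 52.4 after sham. Array 1 of knockout-labelled CLP was just under the highest sham array of its genotype, and all 3 exceeded every wild-type array. The difference from wild-type CLP was 1.66 ± 0.29 (SE, adjusted p = 0.0013), kept with any 1 array left out. The rise of 0.91 ± 0.29 (SE, adjusted p = 0.032) over knockout-labelled sham was lost without array 2 or 3 of knockout-labelled CLP or array 2 or 3 of knockout-labelled sham (adjusted p up to 0.12). Irf7 amplifies interferon-alpha production. Irf7 (probe set 1417244_a_at) read 165, 372 and 761 in knockout-labelled CLP and 164, 99.7 and 173 in knockout-labelled sham. Wild-type Irf7 signals were 161, 146 and 145 after CLP and 129, 115 and 115 after sham. Array 1 of knockout-labelled CLP sat inside the knockout-labelled sham range, while arrays 2 and 3 were the 2 highest of the 12. Irf7 rose over knockout-labelled sham by 1.33 ± 0.40 (SE, adjusted p = 0.025), lost without array 2 or 3 of knockout-labelled CLP or array 2 of knockout-labelled sham (adjusted p up to 0.096). Against wild-type CLP it was higher by 1.24 ± 0.40 (SE, adjusted p = 0.032), lost without array 2 or 3 of knockout-labelled CLP or any array of wild-type CLP (adjusted p up to 0.11).

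Of the 8 effectors that act on RNA, 5 were higher in knockout-labelled CLP than in wild-type CLP and 2 of them also rose over knockout-labelled sham. Ifit1 binds viral RNA caps that lack host methylation. Ifit1 (probe set 1450783_at) read 304, 881 and 2009 in knockout-labelled CLP and 201, 156 and 261 in knockout-labelled sham. Wild-type Ifit1 signals were 137, 118 and 166 after CLP and 161, 163 and 137 after sham. Every knockout-labelled CLP array was above all 9 others, yet array 3 read 6.61 times array 1. Ifit1 was higher than in wild-type CLP by 2.52 ± 0.47 (SE, adjusted p = 0.0022) and rose over knockout-labelled sham by 1.99 ± 0.47 (SE, adjusted p = 0.0083), both kept with any 1 array left out. Oasl2 belongs to the oligoadenylate synthetase family, which makes the messenger that activates RNase L. Oasl2 (probe set 1453196_a_at) read 216, 466 and 1313 in knockout-labelled CLP and 269.5, 193 and 427 in knockout-labelled sham. Wild-type Oasl2 signals were 59.6, 59.0 and 32.7 after CLP and 70.1, 55.3 and 50.1 after sham. The knockout-labelled sham arrays already stood above all 6 wild-type arrays, and the lowest knockout-labelled CLP array lay inside the sham range. Its difference from wild-type CLP, 3.30 ± 0.50 (SE, adjusted p = 0.00057), was the largest of any tested member in that contrast (9.83-fold). After sham it was higher by 2.21 ± 0.50 (SE, adjusted p = 0.016), lost without array 2 or 3 of wild-type sham (adjusted p up to 0.067). CLP against sham in the knockout-labelled mice gave 0.85 ± 0.50 (SE, adjusted p = 0.22), which did not pass.

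Eif2ak2 encodes PKR, a kinase that stops translation when it binds double-stranded RNA. Eif2ak2 (probe set 1422006_at) read 115, 135 and 291 in knockout-labelled CLP and 83.9, 49.6 and 101 in knockout-labelled sham. Wild-type Eif2ak2 signals were 49.0, 46.1 and 41.1 after CLP and 86.8, 77.3 and 62.0 after sham. The knockout-labelled CLP arrays lay above all 9 others, and the wild-type CLP arrays lay below all others. Eif2ak2 was higher than in wild-type CLP by 1.79 ± 0.32 (SE, adjusted p = 0.0015) and rose over knockout-labelled sham by 1.11 ± 0.32 (SE, adjusted p = 0.021). The rise was lost without array 3 of knockout-labelled CLP or array 2 of knockout-labelled sham (adjusted p up to 0.086). In wild-type lungs the difference was -0.68 ± 0.32 (SE, adjusted p = 0.60), not called, and the interaction was 1.79 ± 0.45 (SE, adjusted p = 0.045). On the gene's other tested probe sets the interaction was 0.91 (adjusted p = 0.20) and 1.29 (adjusted p = 0.16), not called. Oas1a is another oligoadenylate synthetase. Oas1a (probe set 1424775_at) read 172, 216 and 460.3 in knockout-labelled CLP and 186, 152 and 228 in knockout-labelled sham. Wild-type Oas1a signals were 153, 131 and 104 after CLP and 105, 114 and 102 after sham. Array 3 of knockout-labelled CLP was the highest and the other 2 overlapped with sham. Its difference from wild-type CLP was 0.99 ± 0.29 (SE, adjusted p = 0.022), lost without array 3 of knockout-labelled CLP or array 2 or 3 of wild-type CLP (adjusted p up to 0.085). Among the other 4, Ifit3 was called against wild-type CLP at 1.11 ± 0.38 (SE, adjusted p = 0.042), lost without array 2 or 3 of knockout-labelled CLP, any array of wild-type CLP or any array of wild-type sham (adjusted p up to 0.15). Ifit3 ranged over 295 to 1223 in knockout-labelled CLP, 381 to 682 in knockout-labelled sham, 249.9 to 303 in wild-type CLP and 341 to 413 in wild-type sham. Ifit2 ranged over 253 to 345 in knockout-labelled CLP, 239.9 to 371 in knockout-labelled sham, 243 to 294 in wild-type CLP and 278 to 297 in wild-type sham. For Ifit2 the groups overlapped and the difference from wild-type CLP was 0.11 (adjusted p = 0.65). Oas2 ranged over 57.9 to 285 in knockout-labelled CLP, 39.8 to 81.0 in knockout-labelled sham, 51.8 to 74.7 in wild-type CLP and 36.9 to 48.9 in wild-type sham. Oasl1 ranged over 42.0 to 280.0 in knockout-labelled CLP, 34.7 to 55.4 in knockout-labelled sham, 56.3 to 79.0 in wild-type CLP and 46.7 to 56.7 in wild-type sham. Neither passed in any contrast, and Oasl1 differed from knockout-labelled sham by 1.32 (adjusted p = 0.053). Array 1 of knockout-labelled CLP lay within the range of the other groups for Oasl1 and Oas2.

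Of the other 7 antiviral effectors tested, 4 were higher in knockout-labelled CLP than in wild-type CLP. Mx1 is a dynamin-like GTPase that blocks influenza virus, and many inbred mouse strains carry a defective allele. Mx1 (probe set 1451905_a_at) read 45.4, 66.6 and 132 in knockout-labelled CLP and 22.7, 14.3 and 23.3 in knockout-labelled sham. Wild-type Mx1 signals were 15.1, 11.2 and 11.1 after CLP and 12.9, 29.0 and 17.8 after sham. The knockout-labelled CLP arrays were the 3 highest, and the other groups overlapped each other at low signal. Mx1 was higher than in wild-type CLP by 2.29 ± 0.38 (SE, adjusted p = 0.00093) and rose over knockout-labelled sham by 1.74 ± 0.38 (SE, adjusted p = 0.0050). Both were kept with any 1 array left out, in runs that did not redo the filter. Since only the knockout-labelled CLP arrays exceeded the array median and carried Mx1 through the filter, its tests with no filter bear on it instead, at adjusted p = 0.0015 against wild-type CLP and 0.0085 against knockout-labelled sham. Its interaction was 2.25 ± 0.53 (SE, adjusted p = 0.037), and with no filter the adjusted p was 0.062. The related Mx2 was above the array median on 2 arrays and so below the filter. Mx2 (probe set 1419676_at) read 32.2, 147 and 234 in knockout-labelled CLP and 20.6, 22.1 and 14.9 in knockout-labelled sham. Wild-type Mx2 signals were 16.3, 19.4 and 26.1 after CLP and 33.7, 28.3 and 24.9 after sham. With no filter on low signal it was higher than in wild-type CLP by 2.19 ± 0.51 (SE, adjusted p = 0.012) and than in knockout-labelled sham by 2.27 ± 0.51 (SE, adjusted p = 0.011). Its array 1 of knockout-labelled CLP lay inside the wild-type sham range.

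Rtp4 is an interferon-induced protein that binds viral RNA and restricts flaviviruses. Rtp4 (probe set 1418580_at) read 726, 1646 and 2376 in knockout-labelled CLP and 650.1, 320.3 and 516 in knockout-labelled sham. Wild-type Rtp4 signals were 422, 382 and 232 after CLP and 362, 363 and 273 after sham. All knockout-labelled CLP arrays lay above all others. Rtp4 was higher than in wild-type CLP by 2.07 ± 0.38 (SE, adjusted p = 0.0018) and rose over knockout-labelled sham by 1.57 ± 0.38 (SE, adjusted p = 0.0088), both kept with any 1 array left out. Samd9l restrains poxviruses and the growth of blood cells. Samd9l (probe set 1460603_at) read 652, 978 and 1495 in knockout-labelled CLP and 614, 532 and 866 in knockout-labelled sham. Wild-type Samd9l signals were 457, 399 and 428 after CLP and 413, 390.2 and 433 after sham. Each knockout-labelled array, CLP or sham, was above each wild-type array. Samd9l was higher than in wild-type CLP by 1.20 ± 0.24 (SE, adjusted p = 0.0033), kept with any 1 array left out, and against knockout-labelled sham it differed by 0.58 (adjusted p = 0.088). Bst2, or tetherin, holds budding virus on the cell surface. Bst2 (probe set 1424921_at) read 221, 257 and 336 in knockout-labelled CLP and 307, 196 and 218 in knockout-labelled sham. Wild-type Bst2 signals were 162, 186 and 154 after CLP and 165, 229 and 229 after sham. The knockout-labelled CLP arrays were above the wild-type CLP arrays and overlapped with both sham groups. The difference from wild-type CLP was 0.67 ± 0.20 (SE, adjusted p = 0.023), lost without array 3 of knockout-labelled CLP or array 1 or 3 of wild-type CLP (adjusted p up to 0.090). Rsad2 encodes viperin, which makes a chain-terminating nucleotide, Cmpk2 is a neighbouring nucleotide kinase, and Ifitm3 blocks viral entry from endosomes. Rsad2 ranged over 285 to 2007 in knockout-labelled CLP, 254 to 768 in knockout-labelled sham, 229 to 331 in wild-type CLP and 158 to 177 in wild-type sham. Cmpk2 ranged over 142 to 851 in knockout-labelled CLP, 192 to 274 in knockout-labelled sham, 121 to 167 in wild-type CLP and 113 to 138 in wild-type sham. Ifitm3 ranged over 6938 to 8988 in knockout-labelled CLP, 5779 to 7337 in knockout-labelled sham, 6123 to 6898 in wild-type CLP and 5676 to 5848 in wild-type sham. None of these 3 passed in any contrast, with differences from wild-type CLP of 1.42 (adjusted p = 0.067) for Rsad2, 1.0 (adjusted p = 0.12) for Cmpk2 and 0.27 (adjusted p = 0.060) for Ifitm3. Another Rsad2 probe set was called higher than in wild-type CLP, at 1.15 (adjusted p = 0.019).

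**Figure D4:**
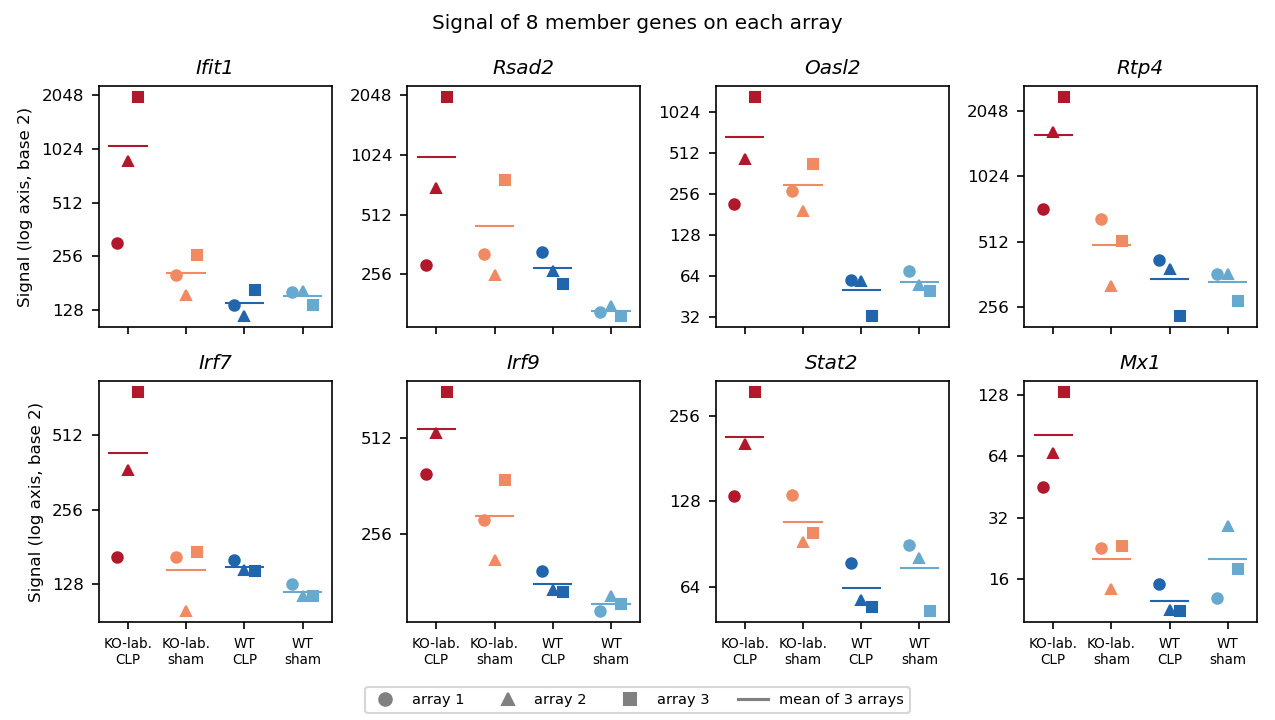
Signal intensity (log axis) of Ifit1, Rsad2, Oasl2, Rtp4, Irf7, Irf9, Stat2 and Mx1 on each of the 12 arrays, by group; points are arrays and bars are group means. The 3 knockout-labelled CLP points are spread the most, from 304 to 2009 for Ifit1, and the wild-type CLP points stay between 118 and 166.

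In the ISG15 system, Usp18 cleaves ISG15 from its targets and also blocks the interferon receptor. Usp18 (probe set 1418191_at) read 136, 349 and 1078 in knockout-labelled CLP and 169, 108 and 225 in knockout-labelled sham. Wild-type Usp18 signals were 123, 128 and 102 after CLP and 163, 142 and 119 after sham. Array 1 of knockout-labelled CLP was inside the sham range and array 3 was the highest of all. Usp18 was higher than in wild-type CLP by 1.65 ± 0.53 (SE, adjusted p = 0.033), lost without array 2 or 3 of knockout-labelled CLP or any array of wild-type CLP (adjusted p up to 0.095). All 3 genes of ADP-ribosylation and ubiquitin transfer were higher in knockout-labelled CLP than in wild-type CLP, and 2 of them rose over knockout-labelled sham. Parp14 adds single ADP-ribose units to proteins. Parp14 (probe set 1451564_at) read 267, 761 and 1312 in knockout-labelled CLP and 258, 165 and 334 in knockout-labelled sham. Wild-type Parp14 signals were 172, 150.5 and 135 after CLP and 141, 147 and 135 after sham. Arrays 2 and 3 were far above every other array, and array 1 lay inside the knockout-labelled sham range. Parp14 was higher than in wild-type CLP by 2.06 ± 0.43 (SE, adjusted p = 0.0037) and rose over knockout-labelled sham by 1.40 ± 0.43 (SE, adjusted p = 0.027). The rise was lost without array 2 or 3 of knockout-labelled CLP or array 1 or 2 of knockout-labelled sham (adjusted p up to 0.10). Parp9 and the ubiquitin ligase Dtx3l work as a pair. Parp9 (probe set 1416897_at) read 411, 809 and 1412 in knockout-labelled CLP and 382, 281 and 432 in knockout-labelled sham. Wild-type Parp9 signals were 329.6, 251 and 223 after CLP and 247, 273 and 226 after sham. The 3 knockout-labelled CLP values were above all wild-type values, and the lowest lay below the highest knockout-labelled sham value. Parp9 was higher than in wild-type CLP by 1.54 ± 0.33 (SE, adjusted p = 0.0048), kept with any 1 array left out, and rose over knockout-labelled sham by 1.11 ± 0.33 (SE, adjusted p = 0.026), lost without array 2 or 3 of knockout-labelled CLP or array 1 or 2 of knockout-labelled sham (adjusted p up to 0.096). Dtx3l (probe set 1435208_at) read 269, 447 and 761 in knockout-labelled CLP and 333, 230.4 and 308 in knockout-labelled sham. Wild-type Dtx3l signals were 223, 205 and 170.4 after CLP and 206, 178 and 184 after sham. The same order held for Dtx3l, with more overlap with sham. It was higher than in wild-type CLP by 1.17 ± 0.28 (SE, adjusted p = 0.0086), kept with any 1 array left out, and differed from knockout-labelled sham by 0.65 (adjusted p = 0.10).

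Of the 4 remaining members with a probe set, 3 were higher in knockout-labelled CLP than in wild-type CLP and none rose over knockout-labelled sham. Ifi35 is a leucine zipper protein that pairs with Nmi. Ifi35 (probe set 1445897_s_at) read 1687, 1658 and 3045 in knockout-labelled CLP and 1777, 1757 and 2214 in knockout-labelled sham. Wild-type Ifi35 signals were 1229, 1207 and 1319.7 after CLP and 1323, 1202 and 1291 after sham. Each knockout-labelled array was above each wild-type array, and only array 3 of knockout-labelled CLP was above the sham arrays of its genotype. Its difference from wild-type CLP was 0.71 ± 0.19 (SE, adjusted p = 0.014), lost without array 2 of wild-type CLP (adjusted p up to 0.050). After sham it was 0.58 (adjusted p = 0.076), not called. Xaf1 binds the apoptosis inhibitor XIAP. Xaf1 (probe set 1443698_at) read 627, 749 and 1187 in knockout-labelled CLP and 740.3, 540.2 and 599.8 in knockout-labelled sham. Wild-type Xaf1 signals were 549, 387 and 414 after CLP and 496, 475 and 459 after sham. All knockout-labelled CLP values lay above all wild-type values and overlapped with knockout-labelled sham. Xaf1 was higher than in wild-type CLP by 0.88 ± 0.21 (SE, adjusted p = 0.0074), kept with any 1 array left out. Lgals3bp is a secreted glycoprotein that binds galectins. Lgals3bp (probe set 1448380_at) read 650.4, 750.4 and 747 in knockout-labelled CLP and 829, 560.2 and 606 in knockout-labelled sham. Wild-type Lgals3bp signals were 599, 481 and 458 after CLP and 503, 515 and 458 after sham. The knockout-labelled CLP arrays were above the wild-type arrays by a small margin. The difference from wild-type CLP was 0.49 ± 0.15 (SE, adjusted p = 0.026), lost without array 2 or 3 of knockout-labelled CLP or array 2 or 3 of wild-type CLP (adjusted p up to 0.10). Tor3a is an interferon-inducible torsin ATPase. Tor3a (probe set 1428660_s_at) read 202, 205 and 309 in knockout-labelled CLP and 219, 211 and 196 in knockout-labelled sham. Wild-type Tor3a signals were 236, 231 and 235 after CLP and 249, 240.0 and 264 after sham. No group stood apart after CLP, and every knockout-labelled sham array was below every wild-type sham array. Its 2 other probe sets disagreed with this one. They were lower in knockout-labelled than wild-type lungs, with log2 differences of -1.13 (adjusted p = 0.0014) and -0.84 (adjusted p = 0.010) after CLP and of -1.24 (adjusted p = 0.0017) and -1.03 (adjusted p = 0.0087) after sham. These 2 were singled out after their values were seen.

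The knockout-labelled CLP arrays differed from each other in 1 order. Array 3 held the highest value of the group for 31 of 32 members and array 1 the lowest for 30, against 34.3% and 27.3% of all tested probe sets. The order array 3 above array 2 above array 1 was found in 29 of 32 members (90.6%), against 18.1% of all tested probe sets. The median ratio of array 3 to array 1 was 2.87 for the members and 0.954 for all, and 24 members (75%) but 4.18% of all tested probe sets reached a ratio of 2. The median SD over 3 arrays was 0.75 on the log2 scale after CLP and 0.32 after sham in knockout-labelled lungs, and 0.19 after CLP and 0.15 after sham in wild-type lungs. Over all tested probe sets it was 0.23 in both knockout-labelled groups and 0.13 in both wild-type groups. The 17 tested probe sets that were not used to represent a member, from 12 of these genes, all showed the order array 3 above 2 above 1. They measure the same genes on the same arrays, so they check the probe sets and not the biology. In knockout-labelled sham, array 2 was the lowest for 29 of 32 members, against 30.1% of all tested probe sets, and array 3 was the highest for 16 and array 1 for 14, against 41% and 29.9% of all tested probe sets. Measures of RNA quality differed along with these arrays. The ratio of 3′ to 5′ Gapdh probe sets was 0.678, 0.746 and 0.843 on knockout-labelled CLP arrays 1, 2 and 3, in the members' order, against 0.729, 0.799 and 0.763 in knockout-labelled sham. Wild-type Gapdh ratios lay between 0.857 and 0.913 after CLP and between 0.800 and 0.832 after sham. The actin ratio was 1.41, 1.28 and 1.45 on the knockout-labelled CLP arrays, below every other array (1.47 to 1.63). The part of RNA quality in the members' order was not tested.

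Members were also read by the ISRE core in their promoter windows. Of 11 tested members with a core in the window, 8 were higher in knockout-labelled than wild-type CLP, with a median difference of 0.99 on the log2 scale. Of 11 without one, 8 were higher, with a median of 1.0. Of all tested probe sets 12.6% were called higher in this contrast. Both the member with the largest difference, Oasl2, and Irf9 lacked the core in the windows printed above, and Ifit1 and Stat2 held it.

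Upstream genes of the pathway were described from lists that are separate from the 34. Counts of these lists and of the cell markers have the following shares of all tested probe sets beside them. For CLP against sham in knockout-labelled mice 10.4% were called higher and 18.8% lower. Between knockout-labelled and wild-type CLP the shares were 12.6% and 16.9%, and between the sham groups 4.48% and 3.86%. For CLP against sham in wild-type mice they were 0.814% and 0.134%. Of 7 tested genes that restrain interferon signalling, 5 rose after CLP in knockout-labelled mice (Socs1, Socs3, Ptpn2, Ptpn6 and Samhd1), and these without Socs3 were higher than in wild-type CLP. Socs1 passed the filter only through its knockout-labelled CLP arrays, and without it 4 of 6 rose and 3 were higher. Socs3, which blocks cytokine receptors, rose by 2.61 ± 0.32 (SE, adjusted p = 0.00023) in knockout-labelled and by 2.22 ± 0.32 (SE, adjusted p = 0.0067) in wild-type lungs, the wild-type call holding in 10 of 12 runs with 1 array left out. The phosphatase Ptpn2, which acts on Jak1, rose by 1.28 ± 0.19 (SE, adjusted p = 0.00076) and was higher than in wild-type CLP by 0.94 ± 0.19 (SE, adjusted p = 0.0037). Ptpn6, a phosphatase of blood cells, rose by 1.30 ± 0.26 (SE, adjusted p = 0.0035) and was higher than in wild-type CLP by 1.32 ± 0.26 (SE, adjusted p = 0.0030). Socs1, the main feedback inhibitor of the pathway, rose by 1.88 ± 0.38 (SE, adjusted p = 0.0035) and was higher than in wild-type CLP by 1.17 ± 0.38 (SE, adjusted p = 0.035), the last holding in 7 of 12 runs, and its adjusted p reached 0.13 when knockout-labelled CLP array 3 was left out. With no filter the rise of Socs1 had an adjusted p of 0.0059, and its difference from wild-type CLP was not called, at an adjusted p of 0.058. With 1 array left out, 4 or 5 of the 7 rose in the knockout-labelled mice.

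Of 13 tested genes that lead to interferon production, 6 rose and 1 fell after CLP in knockout-labelled mice, and 9 were higher and 1 lower than in wild-type CLP. The gene that fell was Irf3, with a difference of -0.49 (adjusted p = 0.042) that held in 2 of 12 runs with 1 array left out. The lower one was Ticam1, with -0.78 (adjusted p = 0.014); both were named after their values were seen. Ikbke encodes a kinase that phosphorylates interferon regulatory factors. Ikbke read 81.2, 219 and 549.8 in knockout-labelled CLP and 27.4, 23.0 and 9.88 in knockout-labelled sham. Wild-type Ikbke signals were 15.0, 25.9 and 24.1 after CLP and 21.6, 16.7 and 7.42 after sham. Its 3 knockout-labelled CLP arrays stood above all others in the same order as the members. Ikbke rose by 3.30 ± 0.57 (SE, adjusted p = 0.0014) over knockout-labelled sham and was higher than in wild-type CLP by 3.15 ± 0.57 (SE, adjusted p = 0.0017). It passed the filter only through these 3 arrays. With no filter the adjusted p was 0.0022 for the rise and 0.0025 against wild-type CLP, and without Ikbke 5 of 12 rose and 8 were higher. Myd88, the adaptor of most Toll-like receptors, rose by 1.46 ± 0.19 (SE, adjusted p = 0.00029) and was higher than in wild-type CLP by 1.39 ± 0.19 (SE, adjusted p = 0.00026). Tmem173, which encodes the adaptor STING of the DNA-sensing route, rose by 1.10 ± 0.24 (SE, adjusted p = 0.0049) and was higher than in wild-type CLP by 1.5 ± 0.24 (SE, adjusted p = 0.00069). Both had called interactions, 1.21 (adjusted p = 0.030) for Myd88 and 1.60 (adjusted p = 0.027) for Tmem173, which held in 3 of 12 and 4 of 12 runs with 1 array left out. Tlr4 was higher than in wild-type CLP by 1.16 ± 0.17 (SE, adjusted p = 0.00046) and differed from knockout-labelled sham by 0.47 (adjusted p = 0.053). Between the sham groups 2 of the 13, Irf5 and Trim25, were called higher in knockout-labelled lungs, both named after their values were seen. Those calls held in 10 of 12 and 3 of 12 runs with 1 array left out.

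The interferons themselves read low. Of 18 type I ligand genes listed, 9 had a probe set and only Ifna2 passed the filter. The other 8 read below every array's median signal, the lowest of which was 31.1, and Ifnb1 read 1.15 to 15.8 over the 12 arrays. The highest value on any array was 30.1 for Ifna1, 23.4 for Ifnz, 21.7 for Ifnab, 13.9 for Ifna11, 10.5 for Ifna5, 7.03 for Ifna4 and 1.52 for Ifna9. Ifna2 read 7.69, 50.3 and 24.5 in knockout-labelled CLP and 40.9, 70.9 and 27.8 in knockout-labelled sham. Wild-type Ifna2 signals were 14.4, 5.92 and 3.94 after CLP and 4.15, 1.72 and 13.2 after sham. These values are low, and the interferon-alpha genes are near-identical copies that 1 probe set may not separate. Ifna2 was called higher in knockout-labelled sham than in wild-type sham, at 2.43 ± 0.61 (SE, adjusted p = 0.027), in 8 of 12 runs with 1 array left out. It was above the array median only on 3 knockout-labelled arrays, CLP array 2 and sham arrays 1 and 2, and with no filter the adjusted p was 0.036. Its difference between CLP and sham in the knockout-labelled mice was -0.87 (adjusted p = 0.30), not called.

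Of 4 tested genes of the interferon receptor and its kinases, 3 rose and 1 fell after CLP in knockout-labelled mice, and none was called against wild-type CLP. Jak1 rose by 0.55 ± 0.10 (SE, adjusted p = 0.0023) and Tyk2 fell by 0.74 ± 0.17 (SE, adjusted p = 0.0071). The rises of Ifnar1, 0.37 (adjusted p = 0.038), and Ifnar2, 0.32 (adjusted p = 0.035), held in 3 of 12 and 7 of 12 runs with 1 array left out. Il10rb, a subunit shared by the interferon-lambda and interleukin-10 receptors, was higher in knockout-labelled than wild-type CLP by 0.73 ± 0.14 (SE, adjusted p = 0.0024). Ifnlr1, the other subunit for interferon-lambda, differed by 0.01 (adjusted p = 0.97). Il10rb was also called higher in knockout-labelled than wild-type sham, a call that held in 3 of 12 runs with 1 array left out.

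Of 11 tested genes better known as targets of interferon-gamma, 8 were higher in knockout-labelled than wild-type CLP and 4 (Ifngr2, Ciita, Gbp2 and Irgm2) were higher in knockout-labelled than wild-type sham. After CLP 5 rose (Ifngr1, Irf1, Irgm1, Irgm2 and Cxcl10) and 1 (Ciita) fell relative to knockout-labelled sham. Those that the naming rule did not pick were named after their values were seen. With 1 array left out, 3 to 8 rose, 6 to 9 were higher after CLP and 2 to 6 after sham, the rise of Irgm1 holding in 2 of 12 runs. Only 3 rose without array 2 or 3 of knockout-labelled CLP or array 2 of knockout-labelled sham, and 8 did when sham array 1 was left out. Only 2 were higher after sham without array 1 of knockout-labelled sham or array 2 or 3 of wild-type sham. Gbp2 is a guanylate-binding protein that attacks intracellular microbes. Gbp2 read 1096, 1553 and 2713 in knockout-labelled CLP and 1938, 895 and 626 in knockout-labelled sham. Wild-type Gbp2 signals were 349, 312 and 313 after CLP and 299.5, 313 and 293 after sham. The knockout-labelled arrays, CLP and sham, were all above all wild-type arrays and overlapped each other. Gbp2 was higher than in wild-type CLP by 2.35 ± 0.35 (SE, adjusted p = 0.00055) and after sham by 1.76 ± 0.35 (SE, adjusted p = 0.0084). Iigp1, a GTPase of the same defence, read 1023, 3089 and 4059 in knockout-labelled CLP and 2528, 715 and 449.7 in knockout-labelled sham. Every wild-type Iigp1 value lay below all of these, at 402 or less. Its difference from wild-type CLP was 2.93 ± 0.56 (SE, adjusted p = 0.0025). Irgm2 and Irgm1, GTPases of the same group, were higher than in wild-type CLP by 3.23 (adjusted p = 0.00018) and 2.35 (adjusted p = 0.0032).

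Of 27 tested interferon-stimulated genes outside the 34, 10 rose after CLP in knockout-labelled mice and 12 were higher than in wild-type CLP. None fell or was lower. Ifi204, a sensor of DNA, rose by 2.38 ± 0.44 (SE, adjusted p = 0.0023) and was higher than in wild-type CLP by 3.31 ± 0.44 (SE, adjusted p = 0.00026). It passed the filter only through its knockout-labelled CLP arrays, and with no filter the adjusted p was 0.0034 for the rise and 0.00035 against wild-type CLP. Without Ifi204 the counts were 9 and 11 of 26. Slfn2, which restrains the activation of T cells, rose in both genotypes, by 2.66 ± 0.32 (SE, adjusted p = 0.00018) in knockout-labelled and 2.05 ± 0.32 (SE, adjusted p = 0.010) in wild-type lungs, the wild-type call holding in 10 of 12 runs. Ly6e, a membrane protein that blocks coronavirus entry, was higher in knockout-labelled than wild-type lungs after CLP, by 0.58 ± 0.07 (SE, adjusted p = 0.00018), and after sham, by 0.72 ± 0.07 (SE, adjusted p = 5.9e-05). Its CLP response in knockout-labelled mice was -0.07 (adjusted p = 0.53). Ifitm2, a relative of Ifitm3, rose by 0.96 ± 0.12 (SE, adjusted p = 0.00031) and was higher than in wild-type CLP by 0.69 ± 0.12 (SE, adjusted p = 0.0018). With 1 array left out, 7 to 13 of the 27 rose and 9 to 16 were higher than in wild-type CLP.

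Some markers of other cell types were high or low on the same arrays as the members. Monocyte markers summed to 5242, 5658 and 8383 on knockout-labelled CLP arrays 1, 2 and 3 and 3436, 3074 and 4772 in knockout-labelled sham. Wild-type monocyte sums were 2732, 2476 and 2541 after CLP and 2048, 2047 and 2003 after sham. Knockout-labelled CLP was above every other array, in the array order of the members. Sums of other markers had the same order on these arrays. They were those of natural killer cells (485, 659 and 716), erythroid cells (977, 1045 and 1087), plasmacytoid dendritic cells and cardiac muscle. Of 6 tested monocyte markers, 5 were higher in knockout-labelled than wild-type CLP and 4 rose over knockout-labelled sham. Fcgr1, 1 of the 6, itself responds to interferon. Ccr2 read 423, 271 and 633 in knockout-labelled CLP and 95.2, 77.6 and 617 in knockout-labelled sham. Wild-type Ccr2 signals were 74.8, 55.2 and 46.3 after CLP and 51.1, 36.4 and 45.0 after sham. The high value on array 3 of knockout-labelled sham put the Ccr2 ranges of the knockout-labelled groups in overlap. Alveolar macrophage markers summed to 9399.5, 8658 and 9101 in knockout-labelled CLP and 3182, 3452 and 9548 in knockout-labelled sham. They summed to 3195 to 3385 in wild-type CLP and 2998 to 3428 in wild-type sham. They were high on all 3 knockout-labelled CLP arrays without the members' order, and 4 of 6 were called higher and 1 (Car4, named after its values were seen) lower than in wild-type CLP. Marco, 1 of the 4, was above the array median on knockout-labelled arrays alone. Without Marco 3 of 5 were called higher than in wild-type CLP, and 1 of 5 was called higher in knockout-labelled than wild-type sham. With no filter its adjusted p was 0.00072 after CLP and 0.0066 after sham. Endothelial markers summed to 6952, 6001 and 6272 in knockout-labelled CLP and 7537, 7784 and 6909.8 in knockout-labelled sham. They summed to 8760.4 to 8925 in wild-type CLP and 8584 to 8994 in wild-type sham, and 3 of 7 (Kdr, Tek and Tie1) were called lower in knockout-labelled CLP than in both wild-type CLP and knockout-labelled sham. Of 5 tested alveolar type 2 markers, 3 (Sftpc, Sftpb and Abca3) were called lower in knockout-labelled than wild-type CLP, and 1 without array 2 of wild-type CLP. Some markers were called between the sham groups too. Sftpc and Sftpb were lower in knockout-labelled sham, against 3.86% of all tested probe sets. Plac8 and Csf1r of the monocyte markers and Marco and Fabp1 of the alveolar macrophage markers were higher there, against 4.48%. Over all tested probe sets, 16.9% were called lower in knockout-labelled than wild-type CLP and 18.8% lower than in knockout-labelled sham.

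Of 9 tested neutrophil markers, 7 rose after CLP in knockout-labelled mice and 7 in wild-type mice. The wild-type count was 3 without array 1 or 3 of wild-type CLP and 4 without array 2 of that group or array 1 or 2 of wild-type sham. Their sums were 31702 to 35352 in knockout-labelled CLP and 10189 to 26449.6 in knockout-labelled sham. In the wild type they were 32796 to 35743 after CLP and 8576 to 14850.2 after sham. None of the 9 was called higher in knockout-labelled than wild-type CLP, and 1 (Mmp9, named after its values were seen) was called lower. Markers of plasmacytoid dendritic cells, which make large amounts of interferon-alpha, summed to 1503, 1719 and 2019 on knockout-labelled CLP arrays 1, 2 and 3. In knockout-labelled sham the sums were 2040.5 to 2169. They summed to 1810.1 to 1905 in wild-type CLP and 1691 to 1807 in wild-type sham, below every knockout-labelled sham array. Siglech, which defines these cells, read at most 31.1 on any array. Of 6 tested, 2 (Ccr9 and Ly6d) were called higher in knockout-labelled than wild-type CLP and 2 (Ly6d and Cox6a2) in knockout-labelled than wild-type sham. Ly6d and Cox6a2 were also called lower in knockout-labelled CLP than in knockout-labelled sham, a count that was 0 to 2 with 1 array left out. Ccr9 and Ly6d were above the array median on knockout-labelled arrays alone. Without them 0 of 4 were called higher after CLP and 1 of 4 after sham, and 1 of 4 was lower in knockout-labelled CLP than sham. Cardiac muscle markers summed to 2440.2, 3075 and 4734 in knockout-labelled CLP and 6422, 9239 and 5934 in knockout-labelled sham. Wild-type sums were 1636 to 1889 after CLP and 1552 to 1916 after sham. All 4 cardiac muscle markers were called higher in knockout-labelled than wild-type sham and lower in knockout-labelled CLP than knockout-labelled sham. Of the 4, 1 (Actc1) was called higher in knockout-labelled than wild-type CLP. The part of monocytes, macrophages, endothelium, alveolar type 2 cells, plasmacytoid dendritic cells and cardiac muscle in the members' differences was not tested. That of natural killer cells and erythroid cells was not tested either.

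**Figure D5:**
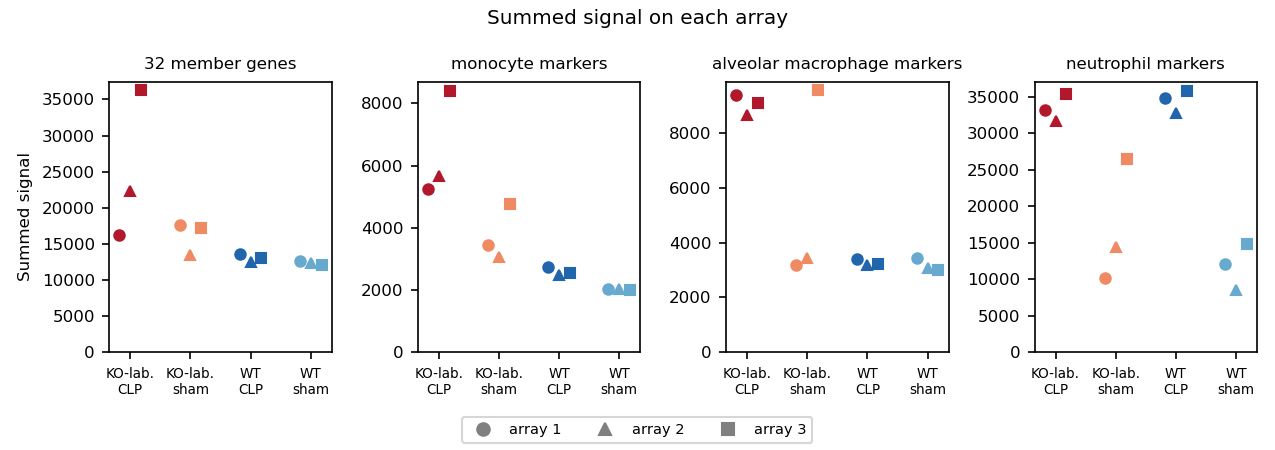
Summed signal intensity on each of the 12 arrays, by group, for the 32 members and for markers of monocytes, alveolar macrophages and neutrophils. Points are arrays. The members' sums in knockout-labelled CLP, 16219, 22326 and 36268 on arrays 1, 2 and 3, and the monocyte sums, 5242, 5658 and 8383, follow the same array order, and the neutrophil sums are high in both CLP groups.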

How the data were processed

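Total RNA from whole lung was hybridised as biotinylated cRNA to 1-colour Affymetrix arrays, per the labels' protocols. The deposited table holds linear signal intensity per probe set; GCOS, MAS5 and Affymetrix Expression Console are named without versions or roles, per the submitters' processing notes. Each array's mean between its 2% and 98% quantiles was 150.001, so no further scaling was applied. Of 45101 probe sets, 64 controls were left out, 34945 had 1 gene symbol, 932 several and 9160 none in the platform annotation. Per gene, the probe set with 1 symbol and the highest mean log2 signal represents it.

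Signals were tested as log2(signal + 3.48), the added constant being 10% of the median array median, so folds of dim genes are understated. Kept were the 24574 of 45037 probe sets that exceeded their array's median on 3 or more of 12 arrays. limma 3.58.1 (R 4.3.3) fitted 4 group means with an intensity trend, and Benjamini-Hochberg adjustment ran over all tested probe sets in each contrast. Called means an adjusted p under 0.05. Differences are log2, knockout-labelled minus wild type or CLP minus sham. Exact permutation of 3 arrays against 3 cannot go below p = 0.1, and 3 arrays a group limit the precision. The script was tested on simulated data. Tables and figures used Python 3.11.15, numpy 2.4.6, pandas 2.3.3, scipy 1.17.1 and matplotlib 3.10.9.

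Members, lists and markers were chosen with earlier results of these data known. Every array's value is given for up to 4 members per role with the smallest p in any contrast, and for members below the filter; in each pathway list, up to 4 genes are named by the same order, and all ligand and receptor genes. Same-numbered arrays of different groups correlated at -0.104 to 0.119 in their deviations from the group means, and no label ties them, so no replicate block was used. Alternatives were quantile normalisation, median centring, another constant, other filters, no trend, array weights, 2-group models, a replicate block, mean probe sets, no probe sets with a suffix for probes that match several transcripts, and leaving out each array.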

Additional observations from a re-analysis of the deposited data

Results flagged for a closer look

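In Eif2ak2 and Mx1 the CLP response differed between the genotypes by a test of the difference itself, the limma interaction. For Eif2ak2 the response in knockout-labelled lungs exceeded that in wild-type lungs by 1.79 ± 0.45 (SE, adjusted p = 0.045), from a response of 1.11 in knockout-labelled and -0.68 in wild-type lungs. The other tested probe sets of Eif2ak2 gave 0.91 (adjusted p = 0.20) and 1.29 (adjusted p = 0.16), neither called, with wild-type responses of -0.37 and -0.20. For Mx1 the difference of responses was 2.25 ± 0.53 (SE, adjusted p = 0.037), with responses of 1.74 in knockout-labelled and -0.50 in wild-type lungs. Mx1 had passed the filter only through its 3 knockout-labelled CLP arrays, and with no filter the adjusted p was 0.062 for Mx1 and 0.072 for Eif2ak2, neither called. Both differences kept their direction in each of 12 runs that left out 1 array. Both calls held in 2 of those 12 runs, without array 1 of knockout-labelled CLP and without array 3 of knockout-labelled sham. In the other 10 runs the adjusted p rose to at most 0.11 for Eif2ak2 and 0.10 for Mx1. No member's summed or single value was tested for outlying arrays, since groups of 3 are too small.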

How the results depend on the processing

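No direction of the 35 gene calls among the members reversed under any alternative. Of these calls, 18 held in all runs with 1 array left out, 20 under all other alternatives and 14 under all of both. The runs with 1 array left out kept the filter set on all 12 arrays, which Mx1 passed only through knockout-labelled CLP. An alternative in which a gene could not be tested was not counted for it, as for Irf9 and Oasl2 without suffixed probe sets. In 790 runs, 96 lost the call. For CLP against sham in knockout-labelled mice, 9 members were called. Median centring called 16, array weights 17 and a model of only the 2 groups 1, and leaving out 1 array gave 4 to 20. The 1 was Mx1, which had passed the filter only through its knockout-labelled CLP arrays. For wild-type mice the count was 0, rose to 3 with only the 2 groups and was 0 with any 1 array left out. For knockout-labelled against wild-type CLP the count of 22 ranged from 15 to 28 with 1 array left out. For the sham groups the count of 2 became 7 with array weights, 5 with only the 2 groups and 1 (Tor3a, lower) without probe sets whose suffix marks several transcripts, and it ranged from 0 to 6 with 1 array left out. The interaction count of 2 became 0 with no filter, 12 with array weights, and 1 each with the filter at 9 arrays, with no intensity trend, with the replicate block, with mean probe sets and without suffixed probe sets, and ranged from 0 to 11 with 1 array left out. With the replicate number as a block the counts were 9, 0, 22, 3 and 1 in the order given here, and the block ended the Eif2ak2 interaction call (adjusted p = 0.053) and no other gene's call. The array numbers mark no pairing in the labels. Counts of all probe sets called higher moved too. The 2553 for CLP against sham in knockout-labelled mice became 5313 with median centring, 1112 with only the 2 groups and 1369 of 11862 genes with mean probe sets. The 3102 for knockout-labelled against wild-type CLP became 1625 genes with mean probe sets and 2002 to 3857 with 1 array left out. The 1101 for the sham groups became 2128 with array weights, 642 genes with mean probe sets and 630 to 1367 with 1 array left out. The 200 for wild-type mice became 793 with array weights, 842 with only the 2 groups, 132 genes with mean probe sets and 48 to 353 with 1 array left out. The 417 of the interaction became 697 with median centring, 252 with no filter, 2266 with array weights, 239 without suffixed probe sets and 56 to 1381 with 1 array left out. The cause of these changes was not tested. Mx1 exceeded the array median on 3 arrays and Mx2 on 2, so most of their values lay under it. Of 4 listed genes that passed the filter only through arrays of 1 group or genotype, tests with no filter, chosen after seeing the data, kept 6 of 8 calls and lost that of Socs1 against wild-type CLP and the interaction of Ifi204.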
